A study of Mus musculus with 2 samples.

Results

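The miR-200 family of epithelial microRNAs was read out in the embryonic mouse kidney. Its 5 genes, Mir200b, Mir200a, Mir429, Mir200c and Mir141, were chosen by name and make up 5 of the 1973 annotated miRNA genes that were counted. All 5 had a row of counts in both libraries. The study holds 1 group: embryonic kidney of B6NCrl mice at day 14.5 of development, with no treatment, transgene or mutation named. Each of the 2 biological replicates was made from total RNA of 2 kidneys, taken on different days, and small RNA libraries covered fragments under 30 nucleotides. The labels name a single pup for each sample and, elsewhere, material of both sexes and 1 donor shared by the samples, so the number of embryos behind a library is not settled. An SD over 2 such samples can be partly technical and says nothing certain about the spread between animals. Because there is no second condition, the comparisons are between the 2 genomic clusters of the family, between its 2 seed groups, between single members and between the replicates.

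A microRNA is cut from a hairpin in a longer primary transcript, and 1 arm of the hairpin is loaded into Argonaute, where bases 2 to 8, the seed, choose the messenger RNAs to be repressed. The miR-200 family is best known for holding cells in the epithelial state: it represses the transcription factors Zeb1 and Zeb2, which in turn repress E-cadherin and the miR-200 genes themselves. In the developing kidney, the epithelia are the branching ureteric bud and the vesicles and tubules that form from the nephron progenitors, set in a mesenchymal stroma with vessels. In a whole kidney, fewer cells of a type and less of a microRNA per cell cannot be told apart.

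The mature 3p arms are shown first because the seed groups are defined on them. The sequences are RefSeq's for GRCm38.p6, written 5′ to 3′, and capitals mark the seed. All 5 members matched an entry.
miR-200b-3p: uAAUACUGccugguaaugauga
miR-200c-3p: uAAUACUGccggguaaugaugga
miR-429-3p: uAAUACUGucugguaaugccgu
miR-200a-3p: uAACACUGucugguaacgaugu
miR-141-3p: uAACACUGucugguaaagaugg
Mir200b, Mir200c and Mir429 carry the seed AAUACUG and form 1 seed group, and Mir200a and Mir141 carry AACACUG and form the other. A single base separates the seeds, U4C, counted from 1 at the 5′ end with the base of miR-200b first and that of miR-200a second. Among the 1738 mature miRNAs of the RefSeq table, AAUACUG occurred in 3 and AACACUG in 2, and all of these were members of the family.

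The 3p arms were compared over 22 positions, seed included. miR-200b-3p and miR-200c-3p, from different chromosomes, were identical at 20 of 22 positions and differed by U11G and A22G (miR-200b first). miR-200a-3p and miR-141-3p, also from different chromosomes, were identical at 20 of 22 positions and differed by C17A and U22G (miR-200a first). The 4 pairs from 1 cluster were identical at 18 of 22 positions each. Of the other pairs across the clusters, miR-200b-3p and miR-141-3p were also identical at 18, and miR-200a-3p with miR-200c-3p, miR-429-3p with miR-200c-3p and miR-429-3p with miR-141-3p at 17 each. The 5p arms were less alike, with 4 different seeds among the 5 members. Only Mir200b and Mir200a shared a 5p seed, AUCUUAC. The deposited tables give 1 count per hairpin and do not separate the arms, so the share of each arm was not analysed here.

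The hairpins are shown because they are the counted units, with the 3p arm in capitals. They lie on the minus strand of mm10 and are listed in the order of transcription within each cluster. The RefSeq hairpin and the GENCODE M21 transcript were identical for all 5.
Mir200b, chr4:156055681-156055750: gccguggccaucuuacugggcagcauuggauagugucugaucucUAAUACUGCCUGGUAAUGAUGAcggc
Mir200a, chr4:156054896-156054985: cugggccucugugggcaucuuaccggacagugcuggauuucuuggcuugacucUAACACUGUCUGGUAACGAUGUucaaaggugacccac
Mir429, chr4:156053905-156053987: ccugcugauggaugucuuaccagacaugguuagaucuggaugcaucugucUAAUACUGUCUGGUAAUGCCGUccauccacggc
Mir200c, chr6:124718322-124718390: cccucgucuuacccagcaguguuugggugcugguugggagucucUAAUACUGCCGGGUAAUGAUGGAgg
Mir141, chr6:124717914-124717985: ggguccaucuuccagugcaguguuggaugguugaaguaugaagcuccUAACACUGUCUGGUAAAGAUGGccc
In the chromosome 4 cluster, Mir200b is followed after 695 bases by Mir200a and after another 908 bases by Mir429, and the whole spans 1846 bases. In the chromosome 6 cluster, 336 bases separate Mir200c from Mir141, within a span of 477 bases. Each cluster thus begins with a hairpin of the AAUACUG group and continues with one of the AACACUG group, and the chromosome 4 cluster adds Mir429, again of the AAUACUG group.

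In GENCODE M21 the 3 chromosome 4 hairpins lie in introns of 2 transcripts of Ttll10, a gene of the tubulin ligase family, on the same strand. They also lie inside the noncoding gene Gm13648 on that strand, Mir200b and Mir200a in its intron and Mir429 in an exon. The chromosome 6 hairpins lie in introns of the noncoding gene Gm15884, which runs on the same strand, and Mir141 also overlaps the single exon of Gm29008. The nearest protein-coding gene of the chromosome 6 cluster is Phb2, 963 bases from Mir141 and on the other strand. Hairpin lengths ran from 69 bases (Mir200c) to 90 bases (Mir200a). Predicted folding energies ran from -42.9 kcal per mol for Mir200a to -30.8 kcal per mol for Mir200b.

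Own-strand counts of miRNA genes came to 5202588 in replicate 1 and 3683978 in replicate 2, so that 3 counts, the limit that a count of 0 allows, correspond to 0.577 and 0.814 CPM. CPM is counts per 1000000 such counts. Detection was set at a minimum of 10 counts in both libraries, which 345 of 1973 genes reached, all 5 members among them. Reads mapping to several places, 28.3% and 27.5% of all reads, are in no gene's count. The Hox cluster miRNAs of the posterior body axis (6 of 6 detected) summed to 250863 and 253078 CPM, and markers of the nervous system (0 of 5 detected) to 1.35 and 1.90 CPM, with Mir124a-1, Mir124a-2 and Mir124a-3 at 0 counts in both libraries. Counts of nervous system genes with identical mature copies are uncertain, because reads mapping to several places are left out. Mir9-1, also on that list, matched no counted gene. Hepatocyte Mir122 stood apart, with 56.3 CPM in the first replicate against 1074 CPM in the second. All intervals here are 95% exact Clopper-Pearson intervals that cover counting error only, and PCR reads that carry no molecular identifier are not independent of one another. Levels of different genes are counts of different sequences, and how evenly the library preparation captured these was not tested.

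Together the family held 139427 counts in replicate 1 and 86529 in replicate 2. In replicate 1 this was 2.68% of counts (interval 2.67 to 2.69). In replicate 2 it was 2.35% (2.33 to 2.36), and over both 2.51% ± 0.234 (SD, n = 2).

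Mir429 (ENSMUSG00000065427.1), the third hairpin of the chromosome 4 cluster, was the most abundant member. Its counts were 79609 and 47051 in replicates 1 and 2, or 15302 and 12772 CPM, a mean of 14037 ± 1789 CPM (SD, n = 2). It ranked 17 among all 1973 genes in either library. Mir429 alone held 57.1% of the family's counts in replicate 1 and 54.4% in replicate 2, and exceeded the other 4 members combined by 0.33 ± 0.11 on the log2 scale.

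The hairpins that open the clusters came next. Mir200c (ENSMUSG00000065462.2) had 27471 and 17847 counts, or 5280 and 4844 CPM in replicates 1 and 2, a mean of 5062 ± 308 CPM. Mir200b (ENSMUSG00000065549.2) had 24864 and 16429 counts, or 4779 and 4460 CPM, a mean of 4619 ± 226 CPM. They ranked 36 and 40 by mean CPM, and the lowest Mir200c value lay just above the highest Mir200b value.

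The members of the AACACUG seed group were the lowest. Mir141 (ENSMUSG00000065474.1) had 3645 and 2717 counts, or 701 and 738 CPM, a mean of 719 ± 26.1 CPM. Mir200a (ENSMUSG00000065400.1) had 3838 and 2485 counts, or 738 and 675 CPM, a mean of 706 ± 44.7 CPM. They ranked 94 and 95 by mean CPM, and their ranges overlapped, with Mir200a the higher in replicate 1 and Mir141 the higher in replicate 2.

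**Figure D1:**
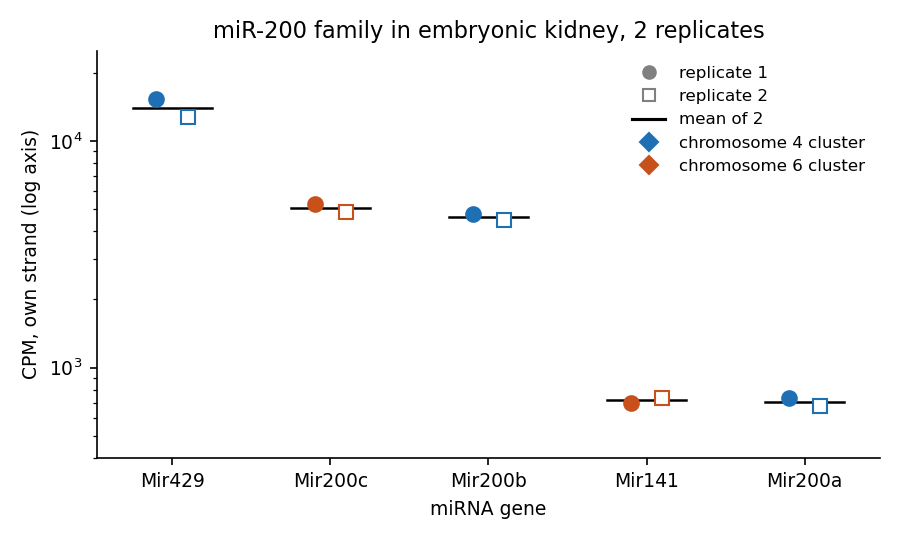
Level of each miR-200 family gene in CPM on a log axis, with replicate 1 as filled circles, replicate 2 as open squares, the mean of both as a bar, and the colour giving the genomic cluster. Mir429 stands highest at 15302 and 12772 CPM, Mir200c and Mir200b lie close together between 4460 and 5280 CPM, and Mir141 and Mir200a overlap between 675 and 738 CPM.

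Hairpin length differs between the genes, so levels were also scaled to counts per annotated base, as a share of the same sum over all genes, in parts per 1000000. On that length-scaled level Mir429 stood at 14234 ± 1814, Mir200c at 6175 ± 376, Mir200b at 5554 ± 272, Mir141 at 841 ± 30.5 and Mir200a at 660 ± 41.8 (SD, n = 2). The order of the 5 genes was the same on both scales. The pair that overlapped in CPM came apart: the length-scaled log2 ratio of Mir141 over Mir200a was 0.25 in replicate 1 and 0.45 in replicate 2, against -0.074 and 0.13 for the counts. The scaling adds the same amount to this ratio in either library, from hairpins of 72 bases for Mir141 and 90 bases for Mir200a, while their 3p arms are 22 bases each.

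All 10 pairs of members were compared within each library, where depth cancels but any uneven capture of the sequences does not. Uneven capture shared by both libraries is not in the SD either. A difference was read as beyond the spread when it had the same sign in both replicates and its mean exceeded 2 SD. An exact sign-flip test of the 2 within-library ratios cannot go below a p of 0.5, so no p is given for the pairs. By that reading, which describes these 2 libraries and is not a test, 9 of the 10 pairs differed. Mir429 over Mir200a was the widest, at a log2 ratio of 4.37 in replicate 1 and 4.24 in replicate 2 (20.7-fold and 18.9-fold), though both come from hairpins of 1 cluster. Mir200c exceeded Mir200b by only 0.14 and 0.12 on the log2 scale, a mean of 0.13 ± 0.017. Mir141 and Mir200a did not differ beyond their spread in counts, at 0.027 ± 0.14.

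**Figure D2:**
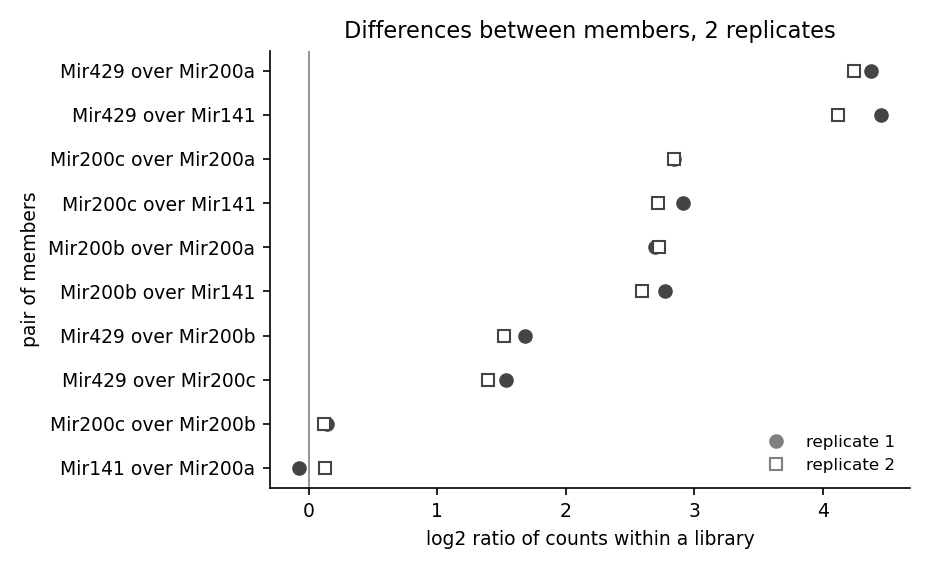
Log2 ratio of counts for each of the 10 pairs of members within a library, replicate 1 as filled circles and replicate 2 as open squares, with the grey line at a ratio of 1. Only the pair Mir141 over Mir200a has replicates on both sides of the line, at -0.074 and 0.13, and Mir200c over Mir200b lies just to its right at 0.14 and 0.12.

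The chromosome 4 cluster had more counts than the chromosome 6 cluster. Mir200b, Mir200a and Mir429 summed to 20819 and 17906 CPM in replicates 1 and 2, and Mir200c and Mir141 to 5981 and 5582 CPM. Their ratio was 3.48-fold in replicate 1 and 3.21-fold in replicate 2, a log2 ratio of 1.74 ± 0.083 (SD, n = 2), and 1.54 ± 0.079 on the length-scaled level. Mir429 carried this difference. Without Mir429, Mir200b and Mir200a stood at 0.922 and 0.920 times the chromosome 6 cluster, a log2 ratio of -0.12 ± 0.0029, so that the order of the clusters was reversed.

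Set hairpin by hairpin, the clusters ran parallel up to Mir429. The first hairpin exceeded the second 6.48-fold and 6.61-fold on chromosome 4 (Mir200b over Mir200a, log2 2.71 ± 0.021). On chromosome 6 it did so 7.54-fold and 6.57-fold (Mir200c over Mir141, log2 2.81 ± 0.14). These ratios overlapped between the clusters. The third hairpin, Mir429, exceeded the first of its own cluster 3.20-fold and 2.86-fold. Levels therefore did not follow the order of the hairpins on chromosome 4: the middle one was the lowest and the last the highest.

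**Figure D3:**
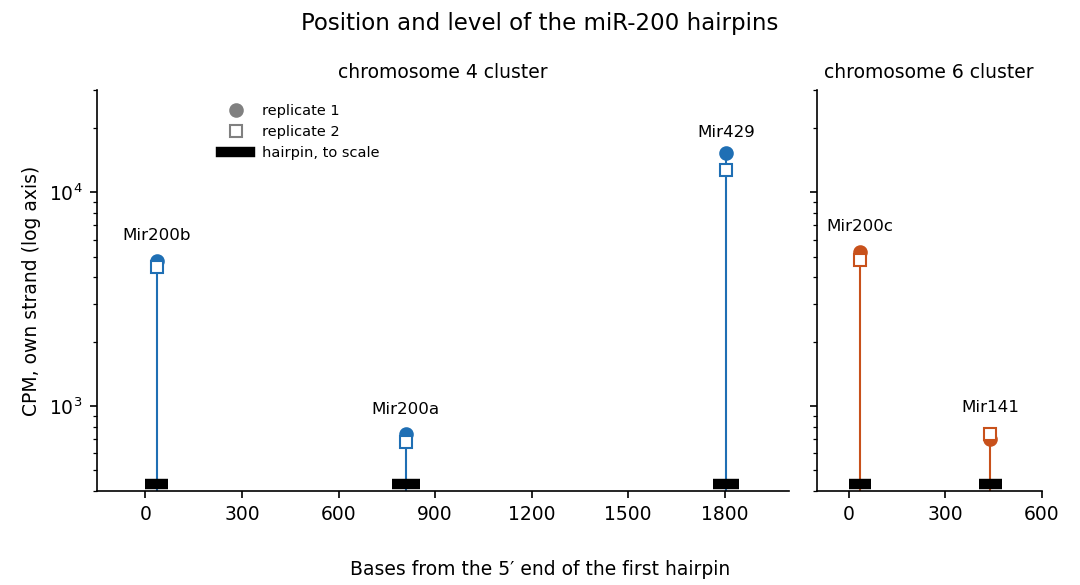
Position of each hairpin, in bases from the 5′ end of the first hairpin of its cluster and with both panels at the same scale, against its level in CPM on a log axis (replicate 1 filled circles, replicate 2 open squares, black bars the hairpins). In both clusters the first hairpin is high and the second lies between 675 and 738 CPM, and the third of the chromosome 4 cluster, Mir429, is the highest of all at 15302 and 12772 CPM.

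The seed groups differed more than the clusters did. The AAUACUG group (Mir200b, Mir200c and Mir429) summed to 25361 and 22076 CPM in replicates 1 and 2, and the AACACUG group (Mir200a and Mir141) to 1438 and 1412 CPM. The ratio was 17.6-fold and 15.6-fold, a log2 ratio of 4.05 ± 0.12 (SD, n = 2), and 4.11 ± 0.13 on the length-scaled level. The AAUACUG group held 94.6% of the family's counts in replicate 1 and 94.0% in replicate 2. The groups differ in size, with 3 genes against 2, and per gene they averaged 7906 and 713 CPM. Without Mir429 the ratio was lower but in the same direction, at a log2 ratio of 2.76 ± 0.061.

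The direction was shared by both loci. Within the chromosome 4 cluster the AAUACUG hairpins exceeded the AACACUG hairpin by 4.72 ± 0.065 on the log2 scale, and within the chromosome 6 cluster by 2.81 ± 0.14. Every AAUACUG member lay above every AACACUG member in both libraries. Between the loci, the AAUACUG hairpins of chromosome 4 exceeded the one of chromosome 6 by 1.88 ± 0.068, whereas the AACACUG hairpins, Mir200a and Mir141, were level at -0.027 ± 0.14.

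Sequence overlap sets a limit to how these counts can be divided. Among all annotated miRNA transcripts of M21, the longest identical stretch that any member's hairpin shared with another was 17 bases, between Mir200a and Mir141, of which 16 lie in their 3p arms from the 5′ end on. Mir200b and Mir200c shared 14 bases at most, of which 10 are in the 3p arm, and the 3p arm of Mir429 shared 12 with Mir200a. A full-length 3p arm therefore occurs in 1 hairpin only, but a read of Mir200a or Mir141 cut short at 16 bases would fit both. The sources used here do not give the shortest read kept or the mismatches allowed. On the opposite strand the members had 0 counts in both libraries, except 2 counts for Mir200a in replicate 2.

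Wide ranges of counts were also found in other annotated miRNA clusters of these libraries. Clusters were formed from neighbouring miRNA genes on 1 strand with at most 10 kb between them, and 39 had 2 or more detected genes. The log2 ratio of highest over lowest gene had a median of 4.31 over these clusters and ran from 0.16 to 11.29. The chromosome 4 cluster, at 4.31 ± 0.093, was itself the middle one: 19 of the 39 were wider. Among the 6 clusters of 3 detected genes, whose median was 3.76, 2 were wider than the chromosome 4 cluster. The chromosome 6 cluster, at 2.81 ± 0.14, had 25 wider. Among the 26 clusters of 2 detected genes, whose median was 3.06, 14 were wider than it. Low counts in other clusters are uncertain where a gene has a copy elsewhere, because reads that fit several copies are in no gene's count. Where the lowest gene of a cluster is such a copy, as Mir199a-2 can be, its count may be too low and the range too wide. The median and the places of the miR-200 clusters among the others may be shifted by this, by an amount that was not tested.

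**Figure D4:**
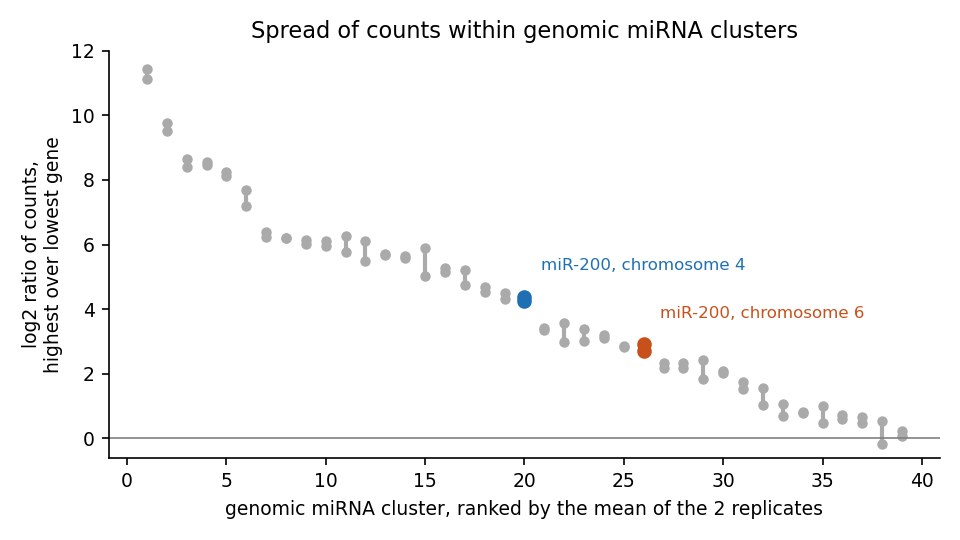
Log2 ratio of counts of the highest over the lowest detected gene in each of 39 genomic miRNA clusters, ranked by the mean, with both replicates as joined points. The miR-200 clusters, in colour, lie at rank 20 (chromosome 4) and rank 26 (chromosome 6). Ranges of other clusters can be too wide where the lowest gene has a copy elsewhere.

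The genes nearest to the members in level were found by the Euclidean distance of log2(CPM + 1) over the 2 libraries. They were Mir20a for Mir429 (12589 ± 313 CPM, distance 0.26), Mir151 for Mir200c (5146 ± 85.7 CPM, 0.073) and Mir182 for Mir200b (4792 ± 211 CPM, 0.075). For Mir141 the nearest was Mir542 (691 ± 68.3 CPM, 0.12) and for Mir200a it was Mir16-2 (684 ± 55.6 CPM, 0.071). With 2 samples of 1 group, this likeness is one of level alone. Reads that fit both Mir16-1 and Mir16-2 are in no gene's count. The level of Mir16-2, and so its likeness to Mir200a, may be off by an amount that was not tested.

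Other miRNAs associated with epithelia, the sensory epithelium cluster Mir183, Mir96 and Mir182 and the stratified epithelium genes Mir203 and Mir205, were all detected (5 of 5). They summed to 11113 and 10382 CPM in replicates 1 and 2, so that the miR-200 family stood 2.41-fold and 2.26-fold above them. The mesenchymal and smooth muscle list (8 of 8 detected), led by Mir143, Mir21a, Mir214 and Mir22, summed to 35600 and 35664 CPM, and the family came to 0.753 and 0.659 times that level. The list holds Mir199a-1, Mir199a-2 and Mir199b, near-identical copies of one another whose reads can map to several places and are then in no gene's count. The list's sum may therefore be too low, and the family's ratio to it too high, by an amount that was not tested. Within the sum, Mir21a held 7644 and 6875 CPM and Mir22 2927 and 3163 CPM in replicates 1 and 2. Whether their reads came from mesenchyme or smooth muscle was not tested, so the ratio is to the list and not to a cell type. Endothelial Mir126a was at 45180 and 47759 CPM. The leukocyte list (3 of 3 counted genes detected) summed to 640 and 591 CPM. Mir142, also on that list, matched no counted gene and is not in the sum. The kidney tubule list (3 of 4 detected), led by Mir192, Mir204 and Mir194-2, summed to 353 and 490 CPM. Reads that fit both Mir194-1 and Mir194-2 are in no gene's count, so this sum may be too low by an amount that was not tested.

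Between the replicates, 4 of the 5 members were slightly lower in replicate 2 on totals of miRNA counts scaled by TMM (trimmed mean of M-values). For 3 of these 4 the difference depended on the denominator. On the TMM-scaled totals the log2 ratio of replicate 2 over replicate 1 was -0.26 for Mir429 (interval -0.27 to -0.24), -0.13 for Mir200a (-0.20 to -0.052), -0.12 for Mir200c (-0.15 to -0.093) and -0.096 for Mir200b (-0.12 to -0.068). Mir141 went the other way, at 0.078 (0.0055 to 0.15). In the two-sided exact binomial test on counts, adjusted by Benjamini and Hochberg's method over all 345 detected genes, Mir429 passed at an adjusted p of 1.09e-207, Mir200c at 1.91e-17, Mir200b at 1.52e-10 and Mir200a at 0.00173. Mir141 did not pass (adjusted p 0.0622). Of all detected genes, 27.2% passed as lower and 26.7% as higher, 53.9% in all, and their median ratio was 0.022, against -0.12 for the 5 members.

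With all reads of the library as the denominator, tallies included and no scaling, a choice made after seeing the data, Mir429 was the only member lower in replicate 2. Mir429 stood at 7618 and 6954 per 1000000 reads in replicates 1 and 2, a log2 ratio of -0.13 that passed the same test at an adjusted p of 1.05e-54. Mir200b stood at 2379 and 2428 (log2 ratio 0.029, adjusted p 0.0767), Mir200c at 2629 and 2638 (0.0050, adjusted p 0.792) and Mir200a at 367.26 and 367.28 (8.36e-05, adjusted p 1). Mir141 stood at 349 and 402, a log2 ratio of 0.20 that passed at an adjusted p of 1.02e-07. This denominator moved the median log2 ratio of all detected genes from 0.022 to 0.15, a shift of 0.13 that is the same for every gene, and 13.0% of detected genes then passed as lower and 40.3% as higher. The part of depth and of reads outside miRNA genes in the members' ratios was not tested.

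The test compares these 2 libraries with counting error alone. On the TMM-scaled totals the absolute log2 ratio of every member but Mir429 was below the median of 0.24 over all detected genes. That median includes genes with far fewer counts, whose ratios vary more by counting error than those of the members. It therefore cannot show that the members' differences were small. Of the genes nearest in level, Mir20a (for Mir429) had -0.047, Mir151 (for Mir200c) -0.030 and Mir182 (for Mir200b) -0.086. Each was smaller in size than the member's own ratio. Mir542 (for Mir141) had 0.21 and Mir16-2 (for Mir200a) -0.16, both larger in size. The spread over genes of like level was not tested. None of the 5 members reached a log2 ratio of 1, which 3.19% of detected genes did with an adjusted p below 0.05 in the exact binomial test. With a dispersion estimated over all genes (coefficient of variation 0.199), edgeR's exact test called 0 of the 5 members and 2 of 345 genes (0.58%). That dispersion came from the same 2 libraries taken as 1 group, so it includes the differences under test. The absence of calls therefore cannot show that the members did not differ. In that test 0 members, and 16 of all genes, had an unadjusted p below 0.05, and the lowest among the members was 0.53 for Mir429.

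Other lists were compared between the same libraries. Of the other epithelial genes, 4 of 5 passed as lower and 0 as higher in replicate 2 in the exact binomial test, where 27.2% of all detected genes passed as lower, at a median log2 ratio of -0.088 over the list. With all reads as the denominator 0 of the 5 passed as lower and 2 as higher, against 13.0% and 40.3% of all detected genes. In edgeR's exact test 0 of the 5 passed after adjustment and 0 had an unadjusted p below 0.05. The mesenchymal and smooth muscle list had 2 lower and 3 higher of 8 in the exact binomial test, and the Hox list 3 lower and 2 higher of 6. Of all detected genes, 27.2% passed as lower and 26.7% as higher. The kidney tubule list had 1 lower and 2 higher of 3 detected genes in the exact binomial test. Its log2 ratios were -0.20 for Mir204, 0.85 for Mir192 and 0.87 for Mir194-2. The erythroid list had 2 lower and 0 higher of 3, with Mir451a at -1.22. Mir122 had a log2 ratio of 4.26 and passed edgeR's exact test after adjustment. In that test 0 genes of the mesenchymal, Hox, erythroid and kidney tubule lists passed. The erythroid list (3 of 3 detected) summed to 161 and 77.6 CPM in replicates 1 and 2. With Mir122 left out of the totals, the ratio of Mir429 was -0.26, of Mir200a -0.13, of Mir200c -0.12, of Mir200b -0.098 and of Mir141 0.076. The part of the erythroid and tubule lists in the members' ratios was not tested.

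**Figure D5:**
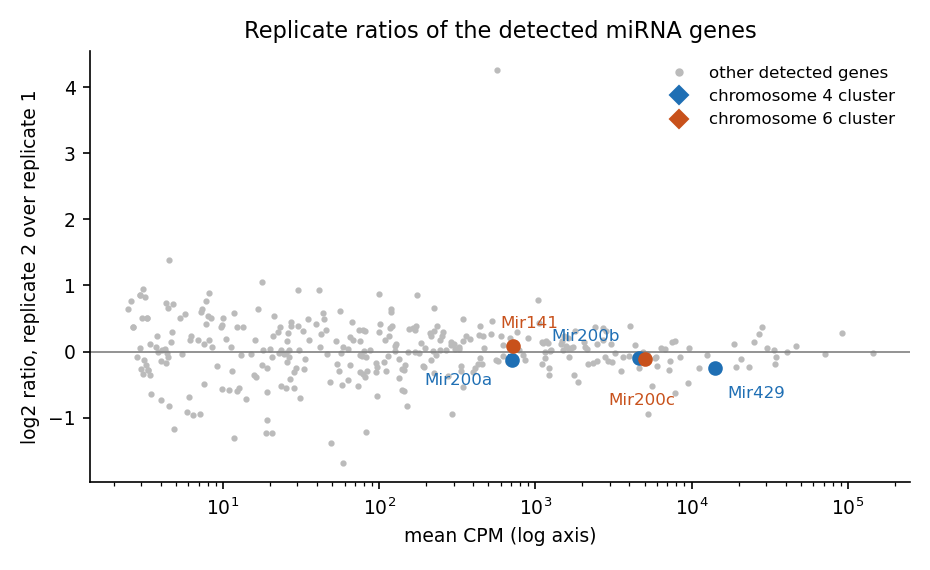
Log2 ratio of replicate 2 over replicate 1 against mean CPM on a log axis for the 345 detected miRNA genes, with the miR-200 members in colour and their 95% intervals, smaller than the points where not visible. The ratios use TMM-scaled totals. With all reads as the denominator, those of Mir200b, Mir200c and Mir200a were 0.029, 0.0050 and 8.36e-05 and did not pass the exact binomial test. The members lie between -0.26 (Mir429) and 0.078 (Mir141), inside the cloud of other genes, and the gene at 4.26 is Mir122.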

How the data were processed

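Per the descriptions deposited with the files, the assembly was mm10 and the annotation GENCODE M4. No aligner or counter is named in the sources used here. The authors deposited raw counts per miRNA gene without normalization, for both strands together, the strand of the gene and the opposite strand. Own-strand counts were used here, and 4 tally rows that name no gene were left out. Of the 1973 identifiers, 1894 matched GENCODE M21 without their version. The other 79 had at most 1 count, and those of Mir200b and Mir200c matched a later version of the gene.

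Levels are CPM over counts on the own strand, as mean and SD of 2 replicates. Replicates were compared with an exact binomial test given totals scaled by TMM factors. Both were kept because the labels name them biological replicates. Their counts differed by a chi-square of 46611 with 344 degrees of freedom, which measures against counting error alone and cannot tell separate animals from separate libraries of 1 animal. Members and lists were chosen with earlier results of these data known. The genes named are the 5 members, the gene nearest to each in level, and the leading genes of fixed lists of cell type markers. Alternatives were the unstranded counts, other denominators, length scaling, means of log2 counts, leaving out Mir429 or a replicate, other count minimums, other scalings, an edgeR exact test and other cluster distances. Leaving out Mir122, and comparing the replicates per read of the whole library, were chosen after seeing the data. Tests ran in Python 3.11.15 with scipy 1.17.1. Scaling factors came from edgeR 4.0.16 and DESeq2 1.42.0 in R 4.3.3, and folding energies from RNAfold 2.7.2. Tables and figures used numpy 2.4.6, pandas 2.3.3 and matplotlib 3.10.9.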

Additional observations from a re-analysis of the deposited data

How the results depend on the processing

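The order of the clusters rested on Mir429: the log2 ratio of the chromosome 4 cluster over the chromosome 6 cluster was 1.74, and -0.12 without Mir429, 0.91 with the mean of the members' log2 counts, 1.54 per annotated base, and 1.68 to 1.80 with 1 replicate left out. The seed groups kept their direction in every alternative run, from 2.76 without Mir429 and 3.27 with the mean of log2 counts to 4.14 without replicate 2. The family's share of 2.51% was 2.94% without the most abundant gene, Mir10a, in the total, 1.31% of all reads of the library, and 2.35% to 2.68% with 1 replicate left out. Mir141 over Mir200a was -0.074 without replicate 2 and 0.13 without replicate 1. With all reads of the library as the denominator, the log2 ratio of replicate 2 over replicate 1 moved from -0.096 to 0.029 for Mir200b. It moved from -0.12 to 0.0050 for Mir200c and from -0.13 to 8.36e-05 for Mir200a. None of these passed the exact binomial test then. Genes called lower made up 24.5% of those called with that denominator, against 50.5% on TMM-scaled totals. Called genes between the replicates numbered 186, and 2 in the edgeR exact test. Those also at least 2-fold apart numbered 11, 4 at a minimum of 100 counts and 2 in the edgeR exact test. The median range over genomic clusters was 4.31, and 3.38 at 3 kb and also at 50 kb. With 2 replicates of 1 group, none of these values carries a test over animals.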
